A study of Caenorhabditis elegans with 2 samples.

Results

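The genes described here are 10 of the 19985 protein-coding genes of Caenorhabditis elegans, and all act in the synthesis of fatty acids and phosphatidylcholine or in its control. They were chosen by hand from the lipid pathways because fasn-1 and pmt-2 had some of the strongest nuclear peaks in these data, so that the signals of their peaks are a description and are not tested. Binding of ELT-1, a GATA transcription factor, was mapped by ChIP-seq, in which DNA is sequenced that comes down with the immunoprecipitated protein. The labels describe the target as eGFP-tagged ELT-1 and name the antibody by elt-1 alone, so whether untagged ELT-1 was also precipitated is unclear. All samples belong to a single group, with 2 biological replicates: whole L3 larvae of mixed sex from the strain OP354, which carries the unc-119(tm4063) mutation and the transgene insertion wgIs354 with the tagged elt-1. No second genotype, stage or treatment exists, whole larvae do not show in which cells a site was bound, and the tagged factor is expressed from an added transgene.

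ELT-1 is required for epidermal fate in the embryo, and the epidermis of the larva secretes the cuticle and holds much lipid. New fatty acids are built from acetyl units: POD-2, acetyl-CoA carboxylase, makes the malonyl-CoA that FASN-1, fatty acid synthase, joins into saturated chains. These chains are then elongated, desaturated or activated as CoA thioesters. Worms make phosphatidylcholine partly by methylation: SAMS-1 produces the methyl donor S-adenosylmethionine, PMT-1 adds the first methyl group to phosphoethanolamine, and PMT-2 adds the remaining ones. SBP-1, the worm homologue of the sterol regulatory element binding proteins, activates many of these genes. GATA factors bind DNA around the core GATA, and sites were searched here on both strands in the form WGATAR, where W is A or T and R is A or G.

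The DNA at the bound sites is shown first, because the GATA sites lie differently in them. Each line gives the plus strand of ce11, 5′ to 3′, for the strongest peak of a gene, with WGATAR sites of either strand in capitals. Lines for sams-1, pmt-1, pod-2, acs-20 and fat-6 run from 50 bases before to 50 bases after the summit. The pmt-2 summit lies in the 5′ UTR of that gene, so its lines are the 40 bases between the neighbouring gene sumv-2 and the pmt-2 start, and the 30 bases around the closest sites.
pmt-2, before the gene start, chrV:4628540-4628579: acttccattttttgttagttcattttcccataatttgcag
pmt-2, paired sites in the 5′ UTR, chrV:4628613-4628642: cctgtaagAGATAAgAGATAGatgggtaga
sams-1, promoter, chrX:11965849-11965949: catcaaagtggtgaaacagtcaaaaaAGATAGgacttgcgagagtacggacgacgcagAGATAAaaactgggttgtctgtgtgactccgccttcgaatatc
pmt-1, promoter, chrII:5282890-5282990: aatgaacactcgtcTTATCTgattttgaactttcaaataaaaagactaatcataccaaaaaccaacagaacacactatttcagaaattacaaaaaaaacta
pod-2, intron, chrII:1141911-1142011: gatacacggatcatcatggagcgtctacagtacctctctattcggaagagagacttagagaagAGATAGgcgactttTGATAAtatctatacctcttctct
acs-20, downstream of the gene, chrIV:12391347-12391447: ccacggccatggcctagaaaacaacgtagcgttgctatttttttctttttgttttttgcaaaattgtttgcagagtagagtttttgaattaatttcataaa
fat-6, downstream of the gene, chrIV:11908921-11909021: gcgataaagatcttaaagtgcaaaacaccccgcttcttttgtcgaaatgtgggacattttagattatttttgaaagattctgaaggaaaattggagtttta
In pmt-2 and pod-2 the sites stand in close pairs on the strand of the gene. In sams-1 they lie on either side of the summit, also on the strand of the gene. The TTATCT of pmt-1 is AGATAA on the minus strand, which is the strand of that gene. The printed lines of acs-20 and fat-6 have no WGATAR. The strongest fasn-1 peak, which is not printed, had none within 50 bp of its summit either.

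ELT-1 peaks found in both replicates lay close to the starts of fasn-1, pmt-2, pmt-1 and sams-1. Further IDR peaks lay in pod-2 and beside acs-20 and fat-6, and none passed the threshold near let-767, fat-2 or sbp-1. The authors' list of 1910 reproducible peaks (IDR peaks, after the irreproducible discovery rate, which scores the repeat of peak ranks) holds exactly the 1910 strongest pooled peaks. It had a summit in the window of 7 of the 10 genes, where a window is the gene body plus 5 kb on each side. Across all protein-coding genes, 18.4% had such a summit in their window. Longer genes had one more often, with 25.1% among the 4997 longest (3633 bp or more), to which 7 of the 10 belong. The windows held 12 IDR summits, 7.10 per 100 kb, against 1.88 per 100 kb of the nuclear genome. These counts include the peaks for which fasn-1 and pmt-2 were chosen and are given with no test.

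The promoter window, from 1000 bp upstream to 200 bp downstream of a transcript start, held an IDR summit in 4 of the 10 genes: fasn-1, pmt-1, pmt-2 and sams-1. Of all protein-coding genes, 5.03% had one. All 4 promoter summits had AGATAA within 50 bp, against 17.5% of the 1006 protein-coding genes with a promoter IDR summit. Of all protein-coding genes, 0.881% had such a summit, against 4 of the 10 here. These promoter counts include the pmt-2 peak, for which the set was partly chosen, so they are a description and were not tested. Counting the promoters of neighbours too, 6 of the 12 summits lay in a promoter window, against 43.8% of all nuclear IDR summits. By the nearest protein-coding start, 7 of the 12 summits belonged to the gene in whose window they lay and 5 to a neighbour.

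**Figure D1:**
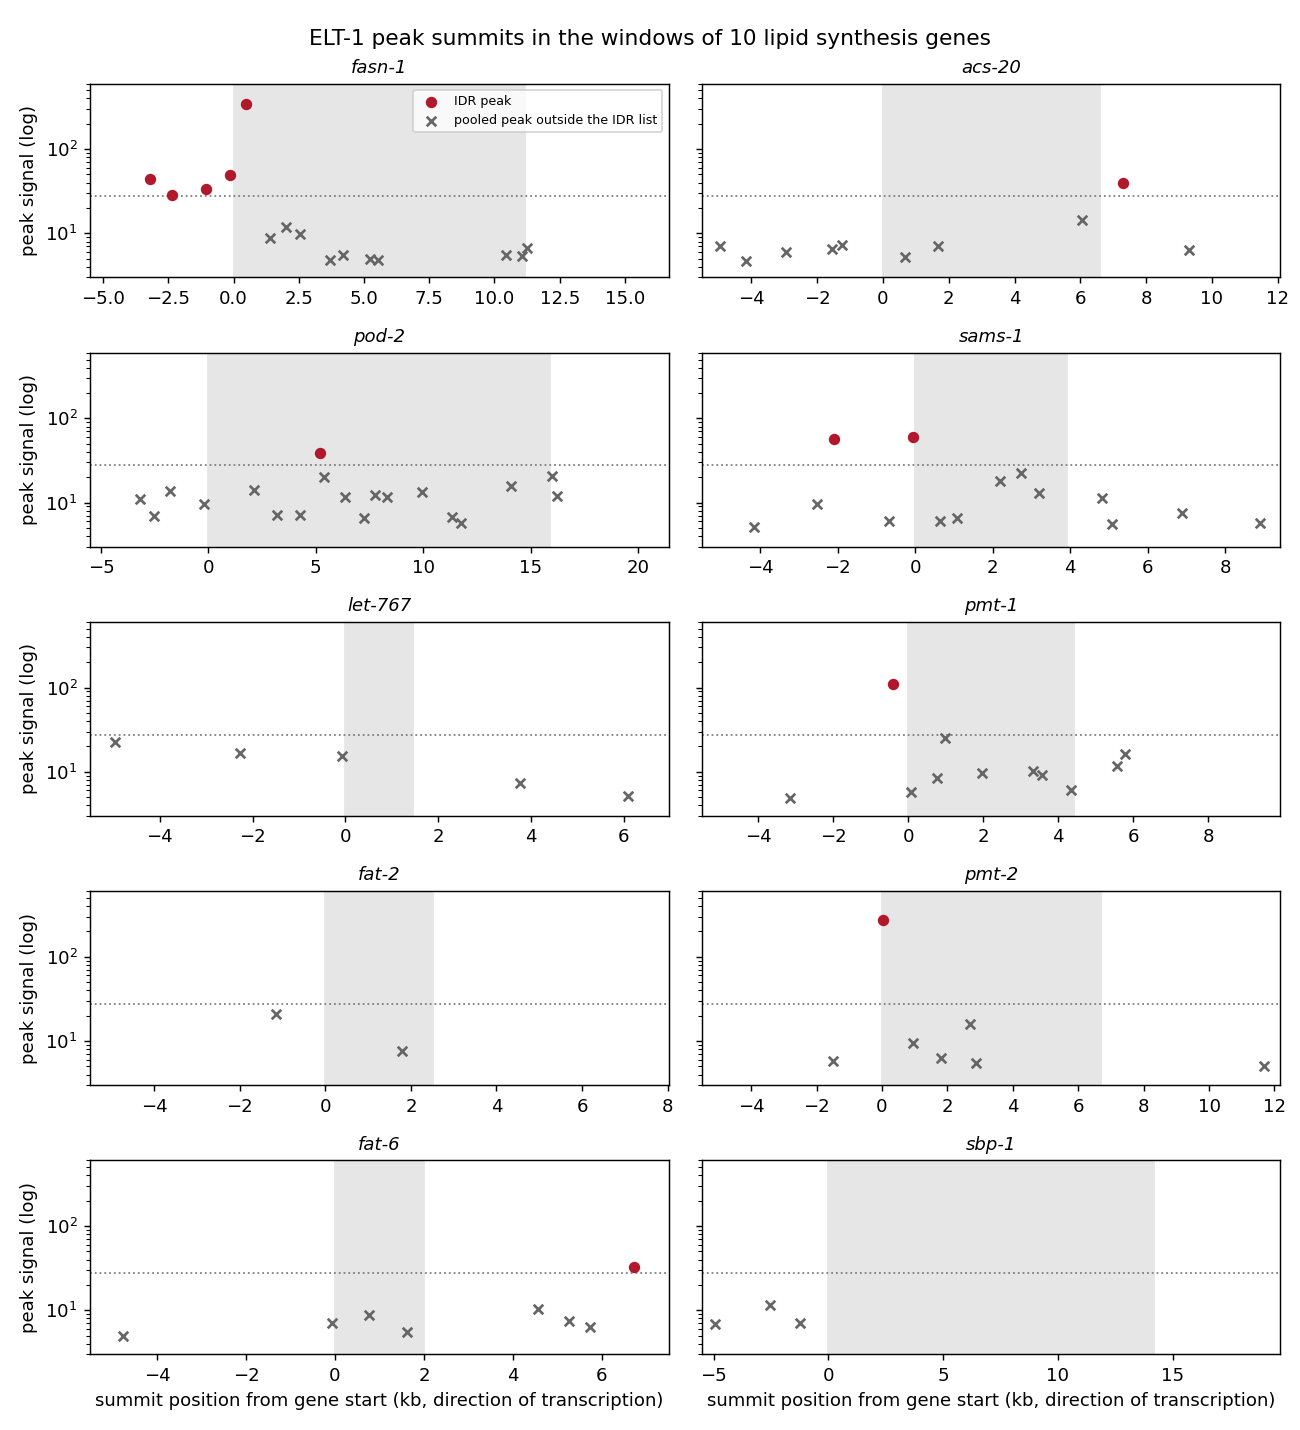
Signal of each pooled peak (log axis) against the distance of its summit from the gene start in kb, in the direction of transcription, for the 10 genes. Red points are IDR peaks, grey crosses are pooled peaks outside the IDR list, grey bands are gene bodies and the dotted line is the lowest IDR signal, 27.7. Red points stand within 0.5 kb of the starts of fasn-1, pmt-2, pmt-1 and sams-1, others lie up to 3205 bp upstream or 7309 bp downstream of a start, and let-767, fat-2 and sbp-1 have only grey crosses.

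Among the genes for new fatty acids, fasn-1 (WBGene00009342, chromosome I, 8975366 to 8986540, minus strand) had the strongest peak of the set. Its peak at 8985892 to 8986273 lay in an intron, with the summit 457 bp downstream of the start. The authors' signal for this peak was 342.7, which put it 6th of the 1882 nuclear IDR peaks. In replicate 1 its signal was 159.9, rank 21 of 29029, and in replicate 2 it was 192.9, rank 14 of 30000. Both replicates had it among their strongest peaks, with summits 21 bp and 14 bp from the IDR summit. This peak had no WGATAR within 50 bp, and its only site, an AGATAA on the strand opposite to the gene, began 130 bp from the summit towards the gene start.

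The fasn-1 window held 4 further IDR summits, all upstream. With the intronic one they made 5 within 3662 bp, and 0.175% of protein-coding genes (35 in number) had 5 or more in their window. The nearest, 156 bp upstream of the start, had a signal of 49.7 and an AGATAA 29 bp from its summit. The next, 1046 bp upstream, had a signal of 33.3 and no WGATAR in the whole peak. A summit 2362 bp upstream had 28.4, close to the lowest IDR signal, and a TGATAA 6 bp away. The farthest, 3205 bp upstream with a signal of 43.9, lay 186 bp before the start of the neighbouring gene F32H2.8. That start was also the nearest one to the summit 2362 bp upstream. Of these 4 upstream peaks, 3 were among the 1910 strongest of both replicates, and the one with 28.4 was in neither, at rank 2115 in replicate 1 and 2124 in replicate 2.

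The other gene of that step, pod-2 (WBGene00004076, chromosome II, 1136785 to 1152705, plus strand), had its peak inside the gene. Its only IDR peak, at 1141791 to 1142130, lay in an intron and had a signal of 38.6, percentile 44.2 of the IDR list. The summit was 5176 bp from the first of the annotated pod-2 starts and 1622 bp downstream of the nearest of them. The nearest protein-coding start was that of W09B6.4, on the opposite strand, 1122 bp away. The sequence above shows its 2 sites, AGATAG and TGATAA, 13 bp and 27 bp downstream of the summit. The replicates differed at this peak. Replicate 2 had a summit 6 bp away with a signal of 23.2 (rank 1295), and replicate 1 had none within 100 bp. A second pooled summit, 201 bp from the IDR summit, had a signal of 20.1 and stayed outside the IDR list. It was matched within 100 bp in both replicates, with 17.8 (rank 779) in replicate 1 and 8.08 (rank 7585) in replicate 2. That replicate 1 summit, 151 bp from the IDR summit, had no WGATAR within 50 bp.

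Of the 4 genes that modify or activate fatty acids, fat-6 and acs-20 had an IDR peak downstream of the gene, and let-767 and fat-2 had none. LET-767, a reductase needed for long and branched chains, is encoded by let-767 (WBGene00002891, chromosome III, 6338508 to 6339969). It had no IDR summit within 20325 bp of the gene, and its strongest pooled peak, 4974 bp upstream, had a signal of 22.4. That peak had a signal of 6.59 in replicate 1 and 16.8 in replicate 2. Another pooled summit, 67 bp before a let-767 start, had a signal of 15.4 and a partner within 100 bp in replicate 2 alone, with 15.1.

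Of the desaturase genes, fat-2 (chromosome IV, 13323873 to 13326395), whose product makes linoleic from oleic acid, had no IDR summit within 27182 bp of the gene. Its strongest pooled peak, 1163 bp upstream, had a signal of 20.9, with 3.81 in replicate 1 and 16.5 in replicate 2. The stearoyl-CoA desaturase gene fat-6 (chromosome IV, 11913692 to 11915687) had an IDR peak at 11908801 to 11909140 only at the edge of its window, 4721 bp past the end of the gene. Its signal was 32.6, with 21.7 in replicate 1 (rank 529) and 11.9 in replicate 2 (rank 3946), so it was among the 1910 strongest of replicate 1 alone. The nearest start, of VZK822L.2, was 3052 bp away.

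ACS-20, an acyl-CoA synthetase known for a role in the surface barrier of the worm, is encoded by acs-20 (WBGene00009218, chromosome IV, 12392121 to 12398706, minus strand). The IDR peak of its window, at 12391227 to 12391566 with a signal of 39.2, lay 724 bp past the end of acs-20 and 190 bp upstream of dpm-3, which RefSeq names as a putative subunit gene of dolichol-phosphate mannosyltransferase. Its signal was 8.15 in replicate 1 (rank 3305) and 27.8 in replicate 2 (rank 913). The only WGATAR of the peak, a TGATAG, was 120 bp from the summit. Upstream of acs-20 the strongest pooled peak, 1244 bp from the start, had a signal of 7.28, below the IDR range.

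The 3 genes of the set in the methylation route to phosphatidylcholine each had an IDR summit with WGATAR close to their own start. A promoter IDR summit, with or without a site, was found for 5.03% of all protein-coding genes. The set was chosen partly for the pmt-2 peak, so the 3 of 3 is a description. Outside the set, the S-adenosylmethionine synthetase gene sams-3 had a promoter IDR summit and sams-4 had none. In pmt-2 (WBGene00018811, chromosome V, 4628580 to 4635263, plus strand) the peak at 4628478 to 4628781 had its summit in the 5′ UTR, 33 bp past the start. Its signal was 273.0, 9th of the nuclear IDR peaks, with 111.0 in replicate 1 (rank 31) and 161.9 in replicate 2 (rank 20). The summit had 3 sites within 50 bp, at 8, 15 and 44 bp downstream and with the forms AGATAA for the first, AGATAG for the second and TGATAA for the last. Of nuclear IDR summits, 1.86% had 3 or more. The first pair is the one printed above, separated by a single base. The summit of replicate 2 lay 2 bp from the IDR summit and that of replicate 1 25 bp from it.

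For pmt-1 (WBGene00022781, chromosome II, 5278090 to 5282523, minus strand) the peak at 5282823 to 5282993 lay 417 bp upstream of the start with a signal of 109.3, 95th of the nuclear IDR peaks. Its signal was 45.6 in replicate 1 (rank 118) and 60.4 in replicate 2 (rank 170), and the replicate summits lay within 3 bp of it. The single AGATAA began 31 bp from the summit on the side of the gene. A pooled peak in a pmt-1 intron, 812 bp past a start, fell just outside the IDR list, with a signal of 7.55 in replicate 1 (rank 3849) and 17.7 in replicate 2 (rank 2041).

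The sams-1 gene (WBGene00008205, chromosome X, 11965962 to 11969893, plus strand) had a pair of IDR peaks 2036 bp apart with nearly the same signal. The peak at 11965729 to 11966068 lay 63 bp upstream of the start with a signal of 59.7, against 57.3 for the narrower one 2099 bp upstream. The promoter peak had a signal of 19.4 in replicate 1 (rank 644) and 42.4 in replicate 2 (rank 364). For the distal peak these were 23.4 (rank 455) and 35.9 (rank 530), so that the stronger of the pair differed between the replicates. The promoter peak had AGATAG 19 bp upstream and AGATAA 8 bp downstream of the summit, with a further AGATAA 51 bp upstream, while the distal peak had no WGATAR. The replicate 1 summit of the promoter peak lay 52 bp from the IDR summit.

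For the regulator gene sbp-1 (WBGene00004735, chromosome III, 11428367 to 11442566, minus strand) the strongest pooled peak was weaker than that of each other gene of the set. It lay 2537 bp upstream and had a signal of 11.5. No IDR summit lay within 35741 bp of the gene. Replicate 1 alone had a strong summit there, 2429 bp upstream with a signal of 17.1 (rank 847), whereas the highest signal of replicate 2 in the window was 6.12 (rank 12351). No pooled summit lay within 100 bp of either. The strongest pooled peak, at 11444933 to 11445272, did overlap the replicate 1 peak, at 11444827 to 11445162.

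Of the 12 summits, 11 had a summit within 100 bp in both replicate lists, the exception being pod-2, against 92.2% of all nuclear IDR summits. Among the 1910 strongest peaks of both replicates there were 8, against 55.4% of all nuclear IDR summits. These 8 were the 4 stronger fasn-1 peaks, both sams-1 peaks and the peaks of pmt-1 and pmt-2. For acs-20, pod-2 and fat-6, 1 replicate alone had a summit of that strength within 100 bp. Signals of the replicate lists come from separate peak calls in no stated unit, so they were not tested against each other.

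**Figure D2:**
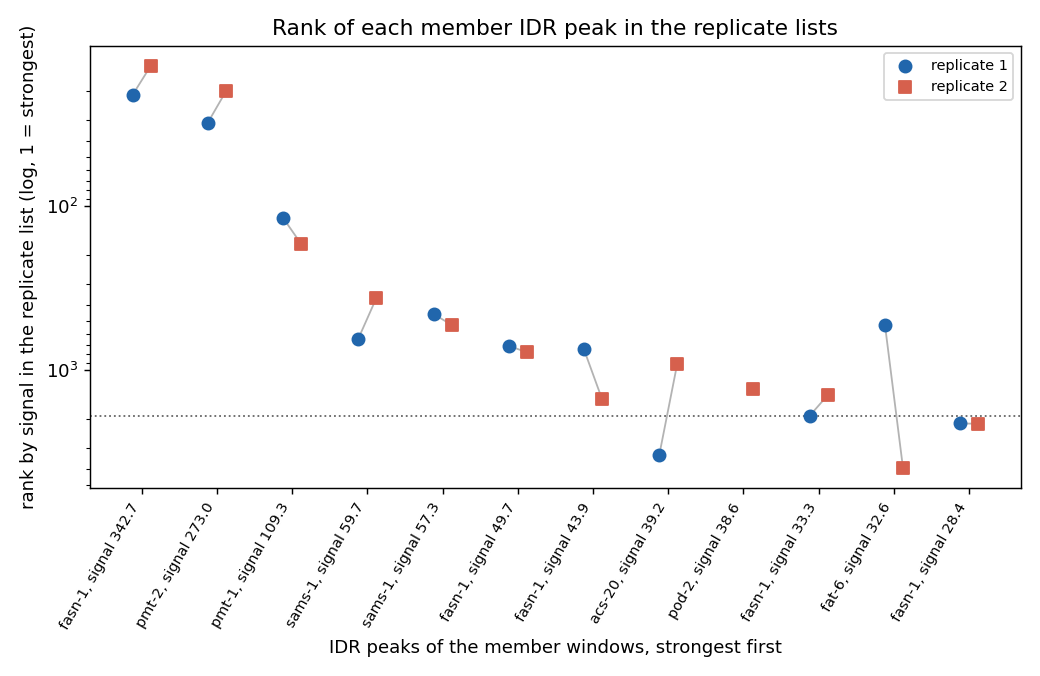
Rank by signal of each of the 12 IDR peaks in the lists of replicate 1 (circles) and replicate 2 (squares), on a log axis with the strongest at the top. The dotted line is rank 1910, and peaks run from the strongest to the weakest by IDR signal. The first fasn-1, pmt-2 and pmt-1 peaks rank high in both replicates, acs-20 and fat-6 have 1 replicate on each side of the line, and pod-2 has no replicate 1 point.

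A GATA site stood close to some of these summits and not to others. WGATAR lay within 50 bp of 6 of the 12 summits, against 40.0% of the nuclear IDR summits and 21.1% of the other nuclear pooled summits. Of the 12, 3 had 2 or more sites (pmt-2, sams-1 and pod-2), against 9.99% of nuclear IDR summits. The whole peaks held a site in 9 of 12 cases, against 67.4% of all nuclear IDR peaks. The 2 strongest peaks differed in this: fasn-1, with a signal of 342.7, had no site within 50 bp, and pmt-2, with 273.0, had 3.

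The 10 sites within 50 bp were AGATAA in 4 cases, AGATAG in 3 and TGATAA in 3, and none was TGATAG. On the strand of the gene lay 8 of the 10, and both exceptions were at fasn-1. At the promoter summits alone it was 6 of 7, against 44.2% of the 419 sites near promoter IDR summits of all protein-coding genes. These 7 sites came from 4 summits, with 3 at pmt-2 and 2 at sams-1, so they are not independent. The 10 windows held 397 WGATAR sites in all, of which 2.52% had an IDR summit within 50 bp, against 0.416% of the 238156 sites of the nuclear genome. Of those with a summit, 3 were in the pmt-2 window, at a peak for which the set was chosen. The fasn-1 window had 2, at its weaker peaks. The 10 windows were also denser in IDR summits, with 7.10 per 100 kb against 1.88 in the nuclear genome. The share of sites with a summit is not independent of that density. Windows without IDR summits held sites as well, with 39 in sbp-1, 34 in fat-2 and 20 in let-767. The DNA within 50 bp of the 12 summits had a median GC content of 36.6%, against 42.6% for all nuclear IDR summits.

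**Figure D3:**
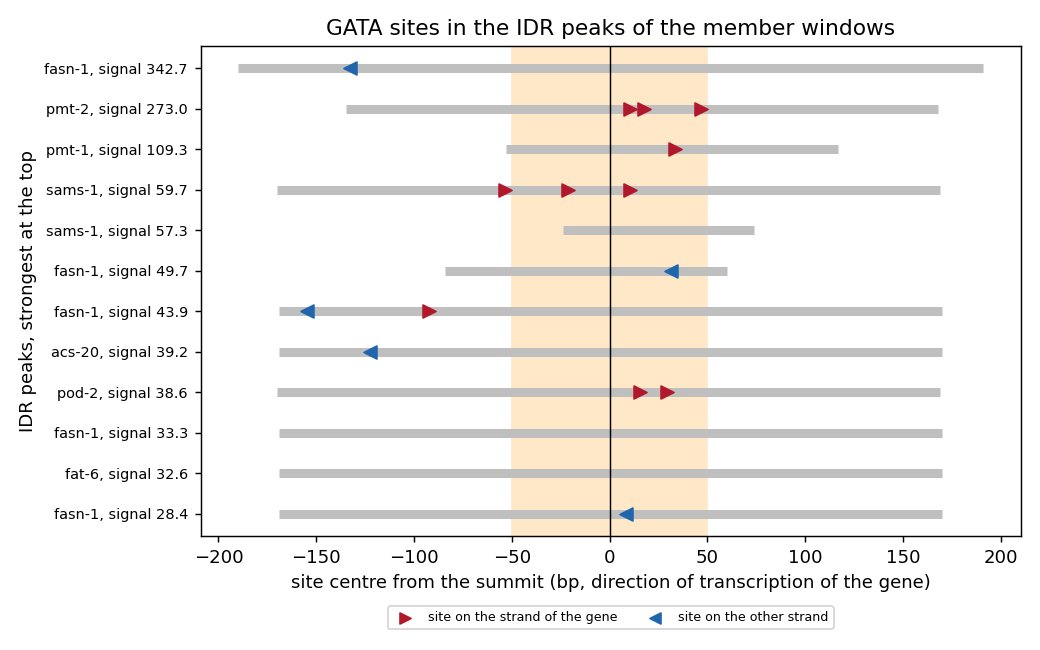
Positions of WGATAR sites in the 12 IDR peaks, as the distance in bp of the centre of each site from the summit along the direction of transcription of the gene. Grey bars are the peaks and the shaded band is 50 bp on each side of the summit. Red triangles are sites on the strand of the gene and blue ones are on the other strand, and 10 sites lie wholly in the band, 3 of them at pmt-2.

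Further genes of the same pathways were counted in the same way, leaving out the 10 genes above. Of 96 other lipid genes in 9 lists, 25 had an IDR summit in the window, 26.0%, against the 18.4% of all protein-coding genes, and 9 had one in the promoter window, 9.38%, against 5.03%. No list was tested, and neighbouring genes can share a peak.

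The methionine and S-adenosylmethionine cycle, which feeds pmt-1 and pmt-2 with methyl groups, had the highest share, with 6 of 11 further genes. That is 54.5%, against 18.4% of all protein-coding genes. The divergent S-adenosylmethionine synthetase genes sams-3 and sams-4 shared a peak with a signal of 82.0, which lay 736 bp upstream of sams-3 and held a TGATAG. It had a signal of 13.3 in replicate 1 (rank 1370) and 69.3 in replicate 2 (rank 126). The peak 715 bp upstream of ahcy-1, which encodes S-adenosylhomocysteine hydrolase, had a signal of 80.3 and a TGATAG, with 33.9 in replicate 1 and 51.5 in replicate 2. That of mthf-1, the methylenetetrahydrofolate reductase gene, had 37.8 and 3 TGATAA sites within 50 bp. Its signal was 20.7 in replicate 1 (rank 585) and 17.1 in replicate 2 (rank 2193). The strongest mtrr-1 peak had 34.8, with 6.83 in replicate 1 (rank 4765) and 26.4 in replicate 2 (rank 1016). The cbs-1 peak had 33.5, with 12.6 (rank 1488) and 16.3 (rank 2361). So the mthf-1, mtrr-1 and cbs-1 peaks were each among the 1910 strongest of 1 replicate alone. In this list 4 of the 11 genes had a promoter IDR summit, against 5.03% of all protein-coding genes: sams-3, ahcy-1, mthf-1 and cbs-1.

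In the list of phosphatidylcholine enzymes, 2 of 9 further genes had an IDR summit, 22.2%, against 18.4% of all protein-coding genes. Both belong to the other branch, in which choline is activated and transferred. These were cept-2, a choline or ethanolamine phosphotransferase gene, with a signal of 47.8 at 346 bp upstream, and pcyt-1, whose product makes CDP-choline, with 32.7 in an intron. Neither summit had WGATAR within 50 bp. The pcyt-1 peak had a signal of 3.20 in replicate 1 (rank 18035) and 27.5 in replicate 2 (rank 932).

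Among regulators of lipid genes, 3 of 7 further genes had an IDR summit, 42.9%, against 18.4% of all protein-coding genes. The nuclear receptor gene nhr-49 had a peak in an intron, 460 bp past a start, with a signal of 70.5 and an AGATAG, the lipin gene lpin-1 had 3 summits, the strongest 3413 bp upstream with 56.5, and the Mediator subunit gene mdt-15 had 40.9 at 2735 bp upstream, nearest to another gene. Of these 3 genes, nhr-49 alone had a promoter IDR summit. That summit was 1 of the 2 in the nhr-49 window, and not necessarily the intronic one.

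Further enzyme genes of the fatty acid chain itself were counted next, against the 18.4% of all protein-coding genes. No IDR summit lay in the windows of the 5 other desaturase genes, and 2 of 11 further elongation genes had one, elo-3 with 107.9 at 2895 bp upstream and elo-7 with 38.7 at 4949 bp past the gene. The elo-3 peak had a signal of 21.1 in replicate 1 (rank 563) and 86.3 in replicate 2 (rank 68). Of 3 further genes for fatty acid precursors, the ATP-citrate lyase gene acly-2 had a summit, 4822 bp upstream with 36.0 and nearest to max-1. Among acyl-CoA synthetase genes 4 of 20 had one, of which acs-2, a gene of mitochondrial fatty acid oxidation, had its peak 726 bp upstream, with 60.1. The peak of 227.5 in the acs-19 window lay nearest to the start of rpl-3, a ribosomal protein gene.

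Genes for triacylglycerol and acyl transfer had a summit in 4 of 17 cases, 23.5%, against 18.4% of all protein-coding genes. These were mboa-2 (38.0), acl-4 (36.5), acl-11 (33.0) and atgl-1 (30.3), all below the median signal of the IDR list, 40.8. Sphingolipid genes had one in 3 of 13 cases, 23.1%, against the same 18.4%. The 3 were sptl-2 (65.0, nearest to F43H9.3), sms-2 (42.5, 770 bp upstream) and sms-1 (38.8, in an intron).

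**Figure D4:**
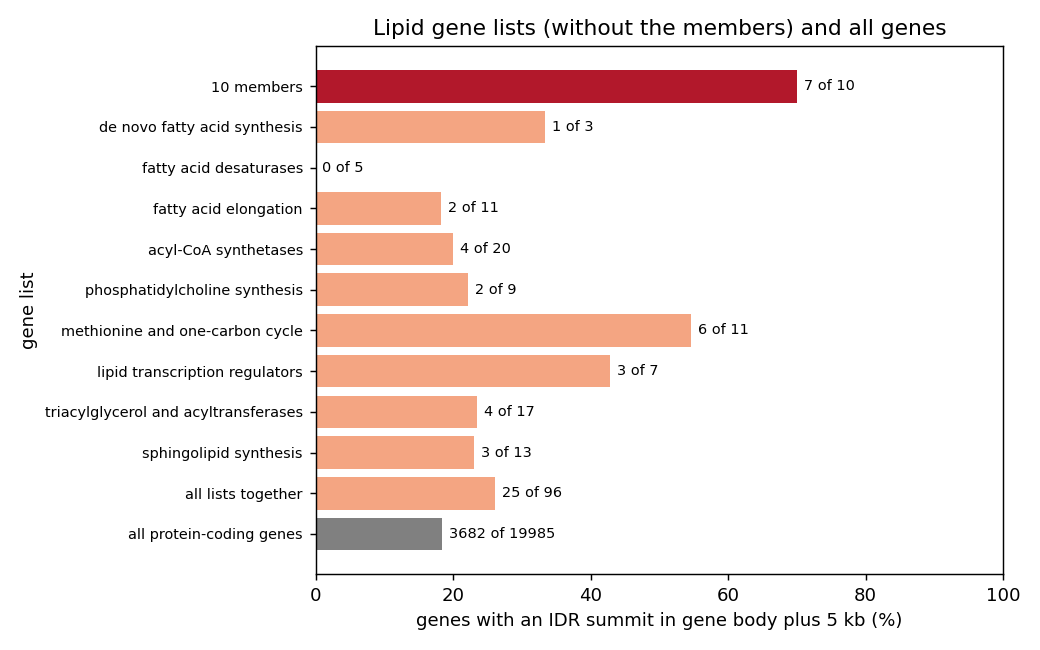
Share of genes with an IDR summit in the gene body plus 5 kb, in %, for the 10 genes (red), the other genes of 9 lipid lists and all lists together (light bars), and all protein-coding genes (grey, 18.4%). The methionine and one-carbon list has 6 of 11 genes and the desaturase list 0 of 5.

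The window of elt-1 itself held 8 IDR summits, the strongest with a signal of 1858, the second highest of the IDR list. Since the strain carries elt-1 in the transgene as well, binding there and copy number cannot be told apart, and this is no check of the tag.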

How the data were processed

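ChIP-seq peak lists of 2 biological replicates were used. Per the authors' library file lists, peaks were called on ce11 for each replicate and for both pooled, each with a control, and the IDR list was derived from these. How reads were aligned, which program called the peaks and at what IDR they were taken is not given in the sources used here. The deposited signal of each peak is the authors' own, in no stated unit, and served here to order the peaks of each list. The −log10 q that the authors deposited has its shared maximum in all 1910 IDR peaks and was not used for order. The summit is the deposited offset from the peak start. Read depth is unknown. The lists on ce10 were not used.

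Summits were placed on WBcel235 (ce11) with the Ensembl release 115 annotation, and sequences were read from the RefSeq assembly of that build (Python 3.11.15). All peaks lay inside its chromosomes, and the IDR list was identical to the 1910 strongest pooled peaks. Other pooled summits are those over 500 bp from every IDR summit. Percentages over all genes or summits are descriptions, and no test was run, since the genes were chosen on these peaks and 1 group has no contrast. The 10 genes, the 9 further lists and the named genes (the 10 genes, up to 4 per list by signal, nearest neighbours and elt-1) were chosen with earlier results of these data known. The genes cbs-1 and mtrr-1 were named after their values were seen. Of 98 further symbols 96 matched. The search and the window counts were checked on planted data. Alternatives were other windows, site distances, match distances, single replicates and the stronger 955 IDR peaks.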

Additional observations from a re-analysis of the deposited data

How the results depend on the processing

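Most counts stayed within 1.5 times their value under other settings. With the gene body alone, 3 of the 10 genes had an IDR summit (fasn-1, pod-2 and pmt-2), with 3 summits in all, 2 of them with WGATAR, and 4 of the 96 further lipid genes had one. With the stronger 955 IDR peaks, 4 of the 10 genes had a summit (fasn-1, pmt-1, pmt-2 and sams-1), 7 summits lay in the windows, and 12 further lipid genes had one. With 10 kb on each side, 39 further lipid genes had one. Shares of all protein-coding genes moved too, to 2.71% with the gene body alone, 9.67% with the stronger peaks, 28.6% with 10 kb, 18.4% without replicate 1 and 17.98% without replicate 2. With the 1910 strongest peaks of a single replicate in place of the IDR list, 6 to 7 of the 10 genes had a summit, 10 to 13 summits lay in the windows, 4 to 5 of them had WGATAR, and 4 genes had a promoter summit, the same 4 each time. Without replicate 1, fat-6 had none, and without replicate 2, acs-20 had none and sbp-1 had 1. The further lipid genes, whose alternatives were chosen after seeing the data, were then 26 in each case. No paired analysis was possible because the labels give 1 group. Among summits matched within 100 bp, positions differed by up to 61 bp between a replicate and the IDR list, which limits statements on sites at about 50 bp. The pod-2 IDR summit had no replicate 1 summit within 100 bp. Annotated starts can be trans-splice sites in C. elegans, and the control was not analysed here.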
